A study of Mus musculus with 5 samples.

Results

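The genes described here encode the proteins that fill, tether, prime, fuse and retrieve synaptic vesicles. The set holds 49 genes of 15 families, named in a list and taken by gene symbol from the 47729 genes of the count table, and all 49 were found. Messenger RNA was sequenced from right hemispheres of the brains of male mice of the inbred strain C57BL/6, aged 5 months. All 5 libraries belong to 1 group, with no treatment, mutation or second age in the labels. The labels do not state that the samples are separate animals, although they are called animals 1 to 5 here in accession order, so a p-value given here speaks of the spread of these samples alone and that spread could be technical. A hemisphere holds many regions and cell types, so for every gene below fewer cells of a type and less RNA per cell cannot be told apart.

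At a nerve terminal, transmitter-filled vesicles are held near the release site by scaffolds of the active zone. Munc13 and RIM proteins prime them, and a complex of the SNARE proteins SNAP-25, syntaxin and synaptobrevin draws the vesicle and plasma membranes together. Calcium binding to a synaptotagmin triggers fusion, complexins clamp and assist the SNARE complex, the ATPase NSF takes used complexes apart, and dynamins cut new vesicles from the membrane. Most of these proteins come as several paralogs, which in mammals differ in calcium affinity, partner proteins or the neurons that use them.

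Because paralogs resemble each other, stretches of their coding sequence are shown first for 5 pairs whose relation the levels below turn on. Coding sequences were assembled from the longest annotated coding transcript of each gene (GENCODE M21, GRCm38). Over the 34 pairs compared below, the longest run of identical bases had a median of 15 bases and a maximum of 32, and it reached 20 in 10 pairs, all below the 50-base words used to test for shared sequence. Each window holds 60 coding bases around the longest identical run, 5′ to 3′, with the bases that differ between the paralogs in capitals. The complexin pair, whose levels were closest among the pairs with 1 order in all animals, differs at 5 of the 60 bases and has the run of 32. It is shown from coding bases 14 to 73 of both Cplx1 (transcript at chr5:108518554-108550024, minus strand) and Cplx2 (chr13:54371349-54383917, plus strand).
Cplx1: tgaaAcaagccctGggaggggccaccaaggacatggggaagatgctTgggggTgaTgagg
Cplx2: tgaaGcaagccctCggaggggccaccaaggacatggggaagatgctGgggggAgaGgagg
Syt1 (chr10:108497650-109010982, minus strand, coding bases 869 to 928) and Syt2 (chr1:134646677-134762593, plus strand, coding bases 872 to 931) are a pair in which Syt2 was called variable between animals and Syt1 was not.
Syt1: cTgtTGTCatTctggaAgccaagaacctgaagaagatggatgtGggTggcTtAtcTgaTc
Syt2: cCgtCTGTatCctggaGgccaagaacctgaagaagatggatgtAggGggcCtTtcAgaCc
Vamp2 (chr11:69088490-69092384, plus strand, coding bases 100 to 159) and Vamp1 (chr6:125215551-125245964, plus strand, coding bases 106 to 165) are shown because Vamp1 narrowly missed the threshold of the same test that called Syt2 variable.
Vamp2: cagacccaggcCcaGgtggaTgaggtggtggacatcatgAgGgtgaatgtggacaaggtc
Vamp1: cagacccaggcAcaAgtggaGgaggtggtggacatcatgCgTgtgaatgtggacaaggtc
Syn1 (chrX:20860511-20921004, minus strand, coding bases 947 to 1006) and Syn2 (chr6:115134902-115282006, plus strand, coding bases 950 to 1009) differ at 9 of the bases shown.
Syn1: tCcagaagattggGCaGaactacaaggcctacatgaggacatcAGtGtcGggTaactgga
Syn2: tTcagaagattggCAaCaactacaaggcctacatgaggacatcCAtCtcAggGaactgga
Dnm1 (chr2:32308471-32353338, minus strand) and Dnm3 (chr1:161982453-162478034, minus strand) are shown from coding bases 95 to 154 of both and differ at 4.
Dnm1: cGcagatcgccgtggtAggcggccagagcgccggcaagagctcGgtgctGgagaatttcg
Dnm3: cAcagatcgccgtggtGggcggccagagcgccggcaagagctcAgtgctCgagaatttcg
No gene of the set shared 20% or more of its transcript words with other annotated genes, the level taken as uncertain. The highest shares were 17.1% for Syt12, 12.9% for Syp, 11.9% for Syn3 and 10.8% for Syt4, each with a gene transcribed from the opposite strand of the same locus, and 21 of the 49 genes shared none. The strand setting of the counting is not given in the sources used here, so reads of these 4 genes and of their antisense neighbours cannot be told apart.

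Library depth ran from 13184234 to 15570064 counts, of which the 49 genes took 282112 to 332402 per library (2.11% to 2.19%). Levels are given in RPKM, which scales reads to the length of the gene and to library depth, computed anew from the counts and the own total of each library. All 49 genes were expressed at a mean of 1 RPKM or more. A mean above 100 RPKM was reached by 13 genes, 26 lay between 10 and 100, and 10 lay between 1 and 10. The median over the set was 35.7 RPKM, against 3.70 over 17736 detected protein-coding genes, and 45 of the 49 lay above that protein-coding median. The lowest counts were those of Syt10, at 57 to 115 per library. Marker genes of neurons fixed for the tissue check (Rbfox3, Tubb3, Map2, Nefl, Nefm and Eno2) all exceeded 1 RPKM and summed to 3706 to 3901 CPM (counts scaled to library depth) per library. Every value after ± is an SD across the animals (n = 5).

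**Figure D1:**
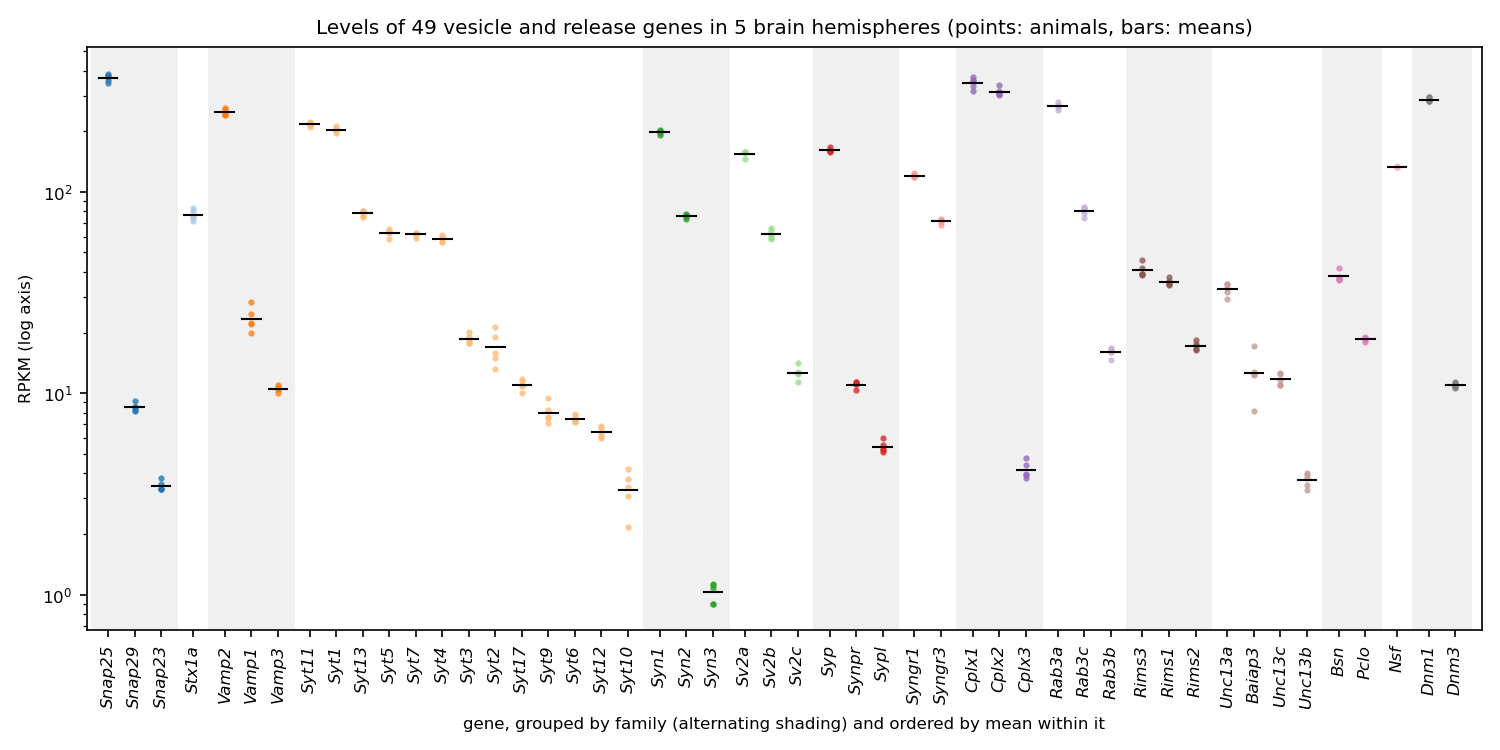
RPKM on a log axis of the 49 genes, grouped by family, with 1 point per animal (5 points a gene) and a bar at the mean. Snap25, Cplx1 and Cplx2 sit highest, above 300 RPKM in every animal, and Syn3 lowest near 1 RPKM, while Baiap3, Syt10 and Syt2 have the widest spread of points.

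Among the SNARE genes, Snap25 and Vamp2 stood far above the broadly expressed members of their families in the set. Snap25 (ENSMUSG00000027273, chromosome 2, 136713453 to 136782428, plus strand), whose product brings a pair of the helices of the SNARE complex, stood at 376, 349, 358, 387 and 377 RPKM in animals 1 to 5 (mean 369 ± 15.5, SD, n = 5). It was the most abundant gene of the set and took 96.9% ± 0.151 of the summed level of Snap25, Snap29 and Snap23. That sum leaves out Snap47, a relative outside the set with a mean of 146 RPKM. Snap29, which acts in fusion inside the cell such as that of autophagosomes, averaged 8.52 ± 0.363 RPKM, and Snap23, the form of most non-neuronal tissues, 3.46 ± 0.193. Snap25 exceeded Snap23 by 104-fold (log2 ratio 6.70 ± 0.051) and Snap29 by 42.8-fold. The length used for Snap25, 6791 bases, covers all annotated exons including a retained intron, and with the longest coding transcript as the length Snap25 came to 1186 RPKM and Snap23 to 5.44. Stx1a, the syntaxin of the presynaptic membrane, stood at 80.6, 73.9, 75.8, 71.3 and 82.9 RPKM (76.9 ± 4.76), highest in animals 5 and 1 and lowest in animal 4.

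Of the synaptobrevins, Vamp2, the main vesicle SNARE of forebrain terminals, stood at 262, 241, 257, 245 and 241 RPKM in animals 1 to 5 (249 ± 9.79). Animals 1 and 3 were the highest, and the range between animals was 1.11-fold. Vamp1 (ENSMUSG00000030337, chromosome 6, 125215551 to 125245964, plus strand), the form used most in brainstem, spinal cord and motor terminals, stood at 24.6, 22.03, 22.4, 28.4 and 19.8 RPKM (23.4 ± 3.24), highest in animal 4 and lowest in animal 5. Vamp3, which serves recycling endosomes in many cell types, averaged 10.5 ± 0.339 RPKM and ranged 1.09-fold. Vamp2 exceeded Vamp1 by 10.7-fold on average, with log2 ratios of 3.40, 3.44, 3.52, 3.11 and 3.59 in animals 1 to 5. Both values depend on the length, since the longest coding transcript gave 430.3 RPKM for Vamp2 and 79.2 for Vamp1, a log2 ratio of 2.45.

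The 13 synaptotagmin genes spanned 65.3-fold, and a pair of them led together. Syt1 (ENSMUSG00000035864, chromosome 10, 108497650 to 109010982, minus strand), the fast calcium sensor of forebrain synapses, stood at 203, 200.4, 207, 197 and 211 RPKM in animals 1 to 5 (204 ± 5.805). Syt11, whose first C2 domain lacks a calcium-binding residue and which has been placed in vesicle retrieval and membrane traffic, stood at 218, 219, 215, 223 and 209.9 RPKM (217 ± 4.66). Their ranges overlapped, and Syt1 was the higher in 1 of 5 animals (log2 ratio -0.09 ± 0.072, exact two-sided sign-flip p = 0.125). This order rests on the length, since with the longest coding transcript Syt1 came to 352 RPKM and Syt11 to 225 (log2 ratio 0.65), and on counts without a length the log2 ratio was 0.59. Together Syt11 and Syt1 held 28.8% and 27.1% of the family's summed RPKM.

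A second tier of synaptotagmins lay between 50 and 100 RPKM. Syt13, which lacks calcium-binding residues, averaged 78.1 ± 2.46 RPKM, Syt5 62.7 ± 2.67, Syt7 61.4 ± 1.52 and Syt4 58.5 ± 2.07. Syt7 is the slow, high-affinity sensor of asynchronous release and facilitation, and Syt4 is found on dense-core and postsynaptic vesicles. The ranges of Syt5 and Syt7 overlapped, as did those of Syt7 and Syt4, so these 3 genes have no order beyond their spread, whereas Syt13 lay above all 3 in every animal. With the longest coding transcript as the length, Syt5 came to 85.2 RPKM and Syt13 to 78.1, so that order depends on the length. Syt1 exceeded Syt13 by 2.61-fold and Syt7 by 3.31-fold, with SDs of the log2 ratio of 0.029 and 0.031, the smallest of all 34 pairs.

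The remaining 7 synaptotagmins stayed below 25 RPKM. Syt3, a high-affinity sensor placed at postsynaptic membranes, averaged 18.6 ± 1.06 RPKM and overlapped with Syt2. Syt2 (ENSMUSG00000026452, chromosome 1, 134646677 to 134762593, plus strand), the fast sensor of brainstem synapses and of parvalbumin interneurons, stood at 19.1, 14.9, 15.9, 21.4 and 13.2 RPKM in animals 1 to 5 (16.9 ± 3.28). It was highest in animals 4 and 1 and lowest in animal 5. Syt17 averaged 10.99 ± 0.672 RPKM (19.3 with the longest coding transcript, against 18.8 for Syt2), so its place behind Syt2 depends on the length. Syt9, another fast sensor, stood at 7.51, 9.51, 7.63, 8.25 and 7.09 RPKM (7.997 ± 0.94), highest in animal 2 and lowest in animal 5. It overlapped with Syt6 (7.45 ± 0.3 RPKM), and Syt9 was the higher in 2 of 5 animals. Syt12, which is phosphorylated by protein kinase A and does not bind calcium, averaged 6.41 ± 0.374 RPKM. Syt10, which in mouse olfactory bulb neurons controls the secretion of insulin-like growth factor, was lowest at 3.08, 4.19, 2.18, 3.41 and 3.74 RPKM (3.32 ± 0.759), with animal 3 the lowest and animal 2 the highest.

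Genes of the vesicle membrane each had 1 leading form. Syn1, a synapsin that ties vesicles to each other and to actin, stood at 202, 192, 201, 196 and 199.7 RPKM in animals 1 to 5 (198 ± 4.02), within 1.07-fold. Syn2 averaged 75.9 ± 1.73 RPKM and Syn3, a form of developing neurons and neurogenic zones, 1.02 ± 0.116. Syn1 exceeded Syn2 by 2.61-fold and Syn3 by 177-fold, the widest ratio of the 34 pairs. With the longest coding transcript Syn2 came to 138 RPKM and Syn3 to 3.14, and the log2 ratios to Syn1 were 0.53 and 5.96 in place of 1.38 and 7.47, so that with this length Snap25 over Snap23 was the widest ratio (log2 ratio 7.74).

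Sv2a, a vesicle glycoprotein that binds the antiepileptic drug levetiracetam, stood at 158, 158, 158, 156 and 146 RPKM in animals 1 to 5 (155 ± 5.25). Animal 5 lay below the other 4, which spanned 156 to 158. Sv2b averaged 61.7 ± 3.14 RPKM (93.7 with the longest coding transcript). Sv2c, whose protein is densest in the basal ganglia and parts of the brainstem, stood at 12.8, 12.6, 12.4, 14.1 and 11.3 RPKM (12.6 ± 1.004), highest in animal 4 and lowest in animal 5. Sv2a exceeded Sv2b by 2.51-fold and Sv2c by 12.2-fold.

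Syp, the abundant vesicle protein synaptophysin, stood at 161, 159, 159.8, 158 and 167 RPKM (161 ± 3.41), highest in animal 5. Its relative Synpr, found in part of the terminals such as hippocampal mossy fibres, averaged 11.04 ± 0.408 RPKM and Sypl, a form also present outside the nervous system, 5.42 ± 0.352. The longest coding transcript gave 324, 27.5 and 8.18 RPKM for these genes in the same order. Syngr1, a 4-pass vesicle protein of the same wider family, stood at 124, 119, 121, 119 and 119 RPKM (120.5 ± 2.48) and exceeded Syngr3 (71.3 ± 1.85) by 1.69-fold on average, with the same sign in 5 of 5 animals.

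By summed RPKM, complexins were the second most abundant family after the synaptotagmins, at 666 ± 32.3 RPKM. That rank depends on the length. With the longest coding transcript Cplx1 and Cplx2 stayed at 348 and 314 RPKM, while Snap25 alone came to 1186. On counts without a length the SNAP genes summed to 2412 to 2673 CPM per library and the complexins to 2210 to 2489. Cplx1 (ENSMUSG00000033615, chromosome 5, 108518554 to 108550024, minus strand) stood at 371, 317, 335, 359.8 and 356 RPKM in animals 1 to 5 (348 ± 21.6). Cplx2 stood at 338, 305, 311, 301 and 316 RPKM (314 ± 14.2), and both genes were highest in animal 1. Cplx1 was the higher in 5 of 5 animals although the ranges overlapped, by 1.11-fold (log2 ratio 0.14 ± 0.076). On counts without a length the order turned, with a log2 ratio of -1.03, and the lengths used were 2189 bases for Cplx1 and 4928 for Cplx2. Cplx3, the form of retinal ribbon synapses and of the deepest cortical layer, averaged 4.16 ± 0.408 RPKM, below Cplx1 by 81.8-fold.

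The Rab3 genes encode small GTPases that bind vesicles to RIM proteins. Rab3a stood at 279, 264, 267, 270.2 and 256 RPKM in animals 1 to 5 (267 ± 8.46) and made up 73.5% ± 0.893 of its family. Rab3c averaged 80.5 ± 4.31 RPKM and Rab3b 16.01 ± 0.846, and all 3 genes were lowest in animal 5. Rab3a exceeded Rab3b by 16.6-fold and Rab3c by 3.32-fold per length. Without a length the counts of Rab3a lay below those of Rab3c (log2 ratio -0.20), and the length recovered for Rab3c, 8500 bases, is 70.6% of its annotated exons.

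Among RIM genes, which organise the release site and recruit calcium channels, the short form Rims3 led. Rims1 stood at 36.1, 35.3, 34.4, 34.9 and 37.9 RPKM in animals 1 to 5 (35.7 ± 1.38) and Rims3 at 45.8, 39.2, 41.96, 38.97 and 38.6 (40.9 ± 3.02). Rims1 lay below Rims3 in all 5 animals (log2 ratio -0.19 ± 0.12), the only pair of the 34 in which the gene set on top was lower throughout. Rims2 averaged 17.2 ± 0.739 RPKM, below Rims1 by 2.07-fold, with a recovered length of 48.6% of its annotated exons.

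Unc13a, the Munc13 priming factor of most forebrain synapses, stood at 34.7, 33.4, 31.97, 29.3 and 34.9 RPKM (32.9 ± 2.33), lowest in animal 4. Unc13c, enriched in cerebellum, averaged 11.7 ± 0.788 RPKM and Unc13b, which primes a subset of forebrain vesicles, 3.701 ± 0.298 (5.71 with the longest coding transcript). Baiap3 (ENSMUSG00000047507, chromosome 17, 25242659 to 25256364, minus strand), a Munc13-like protein of dense-core vesicle traffic, stood at 12.4, 17.1, 12.3, 12.7 and 8.15 RPKM in animals 1 to 5 (12.5 ± 3.17). Animal 2 was the highest and animal 5 the lowest, with the other 3 between 12.3 and 12.7. Baiap3 took 20.5% ± 4.25 of the family's summed level, the widest SD of a share in any family.

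The active zone scaffolds, giant proteins that span the release site, were ordered alike in all animals. Bsn, which encodes bassoon, stood at 41.8, 37.03, 37.9, 36.6 and 37.00 RPKM in animals 1 to 5 (38.1 ± 2.12), with animal 1 above the rest, and exceeded Pclo, which encodes piccolo, at 18.5 ± 0.421, by 2.05-fold. Nsf (ENSMUSG00000034187, chromosome 11, 103821782 to 103954056, minus strand) stood at 134, 133, 133, 132 and 133 RPKM (133 ± 0.634), a range of 1.03-fold that was the smallest of the set. The longest coding transcript gave 295 RPKM for it. Dnm1, the dynamin of synaptic endocytosis, stood at 295, 282, 283, 282 and 294 RPKM (287 ± 6.65) and exceeded Dnm3 (10.9 ± 0.305, or 35.6 with the longest coding transcript) by 26.00-fold (log2 ratio 4.70, or 3.20 with that length).

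**Figure D2:**
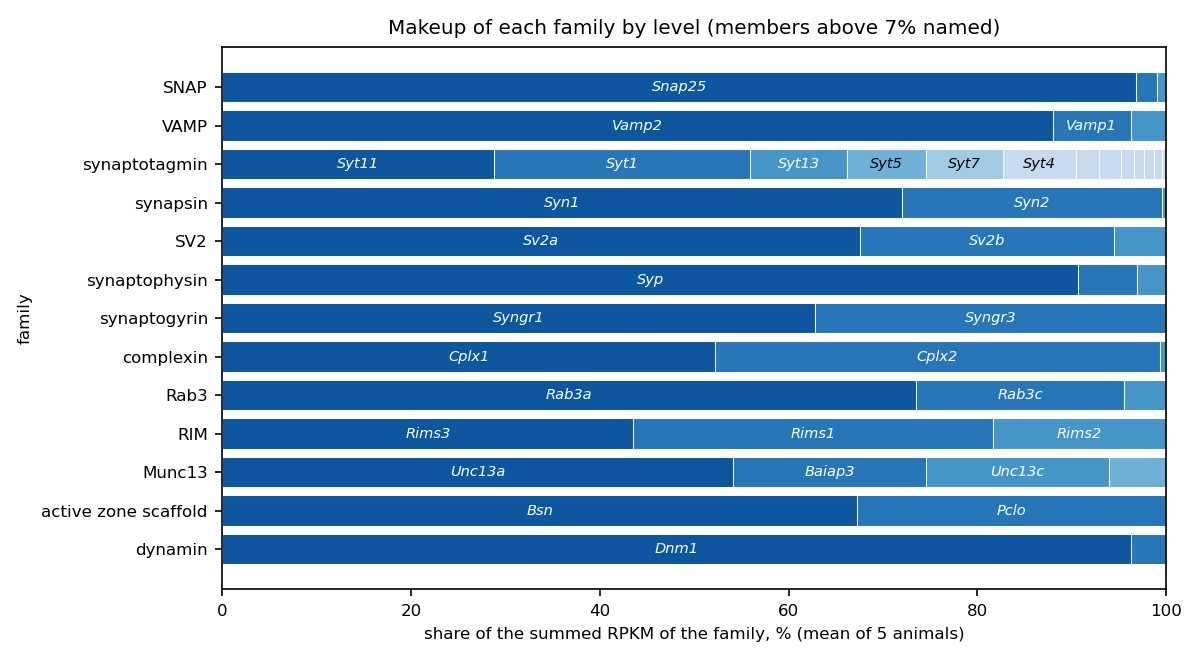
Share of each gene in the summed RPKM of its family, in percent as the mean of 5 animals, for the 13 families with more than 1 gene. Snap25 holds 96.9% and Dnm1 96.3% of their families, whereas Cplx1 and Cplx2 hold 52.2% and 47.2% and Rims3 and Rims1 43.6% and 38.1%. Families count only genes of the set, which leaves out relatives such as Snap47 (146 RPKM), Rims4 (22.97 RPKM) and Dnm2 (13.1 RPKM).

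Set against each other within each animal, the paralogs kept their order almost throughout. Most ratios were wide beside the median range of 1.12-fold between animals, so a constant order says little about paralogs in particular. No share over pairs of unrelated genes was computed to set beside it. In each of 34 fixed pairs the gene named first in its family was put over another member, and their ratio was computed on the log2 scale in each animal after adding 0.1 RPKM to both. The ratio had the same sign in all 5 animals for 33 pairs, of which the first gene was the higher in 32 and the lower in 1 (Rims1 against Rims3), and the exception was Syt1 against Syt11. By an exact sign-flip test, two-sided, each of the 33 reached p = 0.062, which is the lower limit with 5 animals (0.0644 adjusted over the 34 pairs), so no pair could pass 0.05. Over all 111 pairs of genes within a family, 104 kept 1 order in the 5 animals. The widest ratios were those of Syn1 over Syn3, Snap25 over Snap23 and Cplx1 over Cplx3 (81.8-fold). With the longest coding transcript as the length 1 pair turned (Syt1 against Syt11), and on counts without a length 3 turned (the same pair, Cplx1 against Cplx2 and Rab3a against Rab3c).

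**Figure D3:**
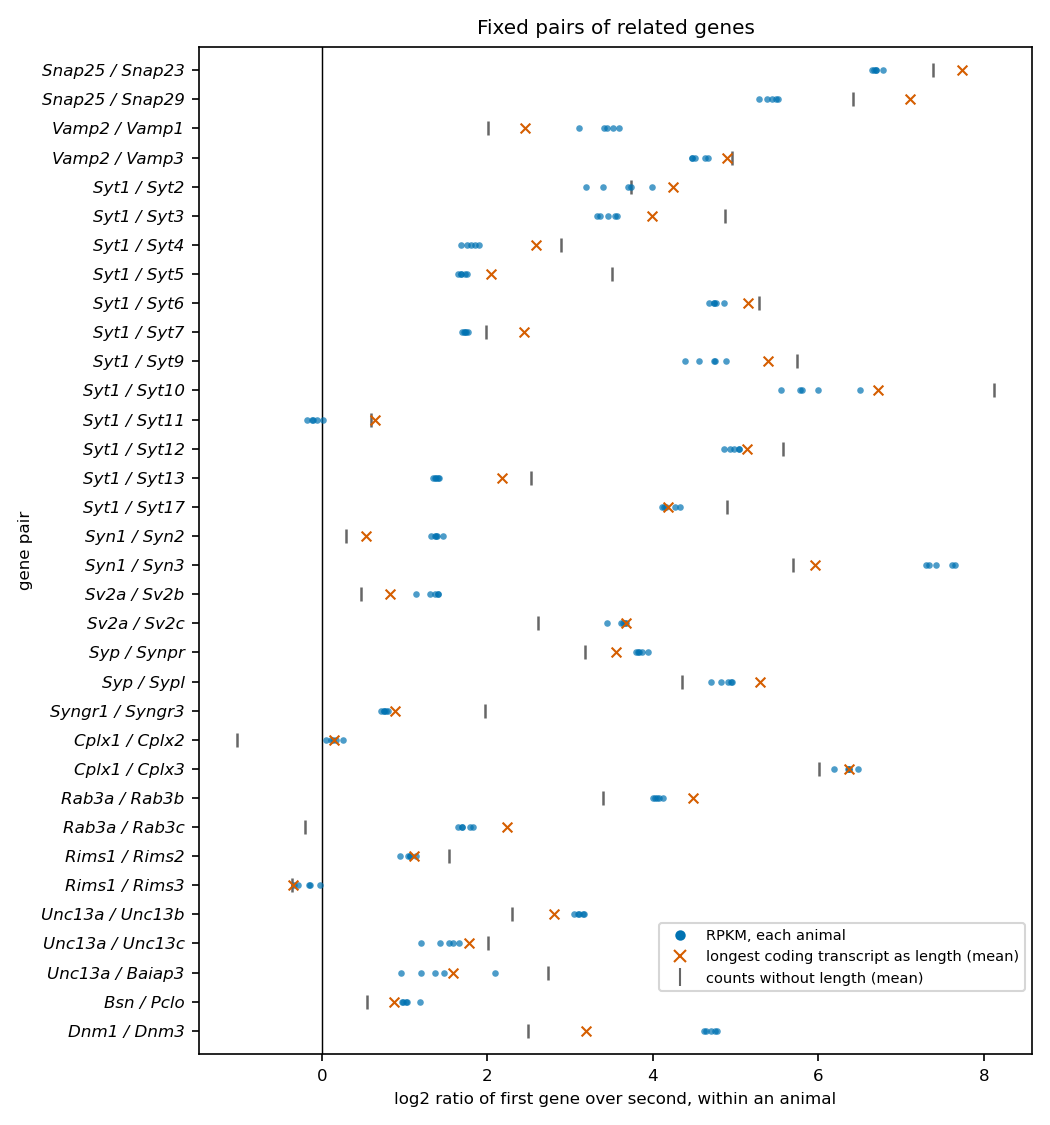
log2 ratio of the first gene over the second for the 34 fixed pairs (points, 1 per animal), with the mean ratio when the longest coding transcript is taken as the length (crosses) and for counts without a length (vertical ticks). Points lie right of 0 for 32 pairs, left of it for Rims1 over Rims3 (-0.19 on average) and around it for Syt1 over Syt11 (-0.09).

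The spread between animals was small for most of the set. All 49 genes passed the filter on low counts. The highest animal exceeded the lowest by a median of 1.12-fold over the set on TMM-scaled counts (scaled so that most genes do not differ between libraries), against 1.19-fold over the 14770 genes tested and 1.12-fold over the 5142 of them with a mean of at least 10 RPKM. The range was under 1.1-fold for 20 genes, from 1.1-fold to 1.25-fold for 22 and at least 1.25-fold for 7. Animal 1 held the highest value of 17 genes, and animals 5 and 2 the lowest of 15 and 14. Animal 4 held the highest of 13 and the lowest of 10. Such numbers were not computed over all genes tested, so these cannot be weighed against them.

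Each gene's variability was tested against the abundance trend of all 14770 genes with edgeR's quasi-likelihood dispersions, one-sided, with adjustment over all genes. Of the 49 genes, 2 were called more variable than the trend (4.08%), namely Baiap3 and Syt2, where 45 of all genes tested were (0.305%). At an unadjusted p under 0.05 the numbers were 7 of the 49 and 802 of all genes. None of the 49 was called steadier by edgeR, where 0% of all genes were, and limma, the other tool run on this tail, called none either. At an unadjusted p under 0.05 this tail held 1 gene of the set, Nsf (edgeR adjusted p = 0.903), and 739 of all genes.

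Baiap3 had a quasi-dispersion of 24.1 times its trend and a range of 2.07-fold (edgeR adjusted p = 0.00279). The call was lost without animal 5, its lowest (range 1.37-fold, adjusted p = 0.142), and held without animal 2, its highest (1.56-fold, adjusted p = 0.0405). Syt2 had 19.2 times its trend and a range of 1.61-fold (edgeR adjusted p = 0.00781). Without animal 4 its range was 1.45-fold (adjusted p = 0.0539) and without animal 5 also 1.45-fold (adjusted p = 0.0343). Vamp1 did not pass, with 11.2 times its trend and a range of 1.43-fold (edgeR adjusted p = 0.0616). It had an adjusted p of 0.634 without animal 4, 0.0496 without animal 1 and 2.34e-06 when no filter on low counts was set. In a fit with limma on recomputed RPKM neither call held, with an adjusted p of 0.247 for Baiap3 and 0.533 for Syt2. DESeq2 marked Baiap3, Syt2 and Vamp1 as dispersion outliers. The share of such outliers over all genes is not given here, so that number cannot be weighed against it.

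The wide ranges of Syt10 (1.86-fold, edgeR adjusted p = 0.837) and Syt9 (1.32-fold, adjusted p = 0.922) did not pass. Their quasi-dispersions were 3.50 and 3.03 times the trend. Syt10 had 57 to 115 counts per library and Syt9 372 to 563, and Snap29, at 374 to 455, ranged 1.12-fold. For Syt10 the range was 1.33-fold without animal 3, its lowest.

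**Figure D4:**
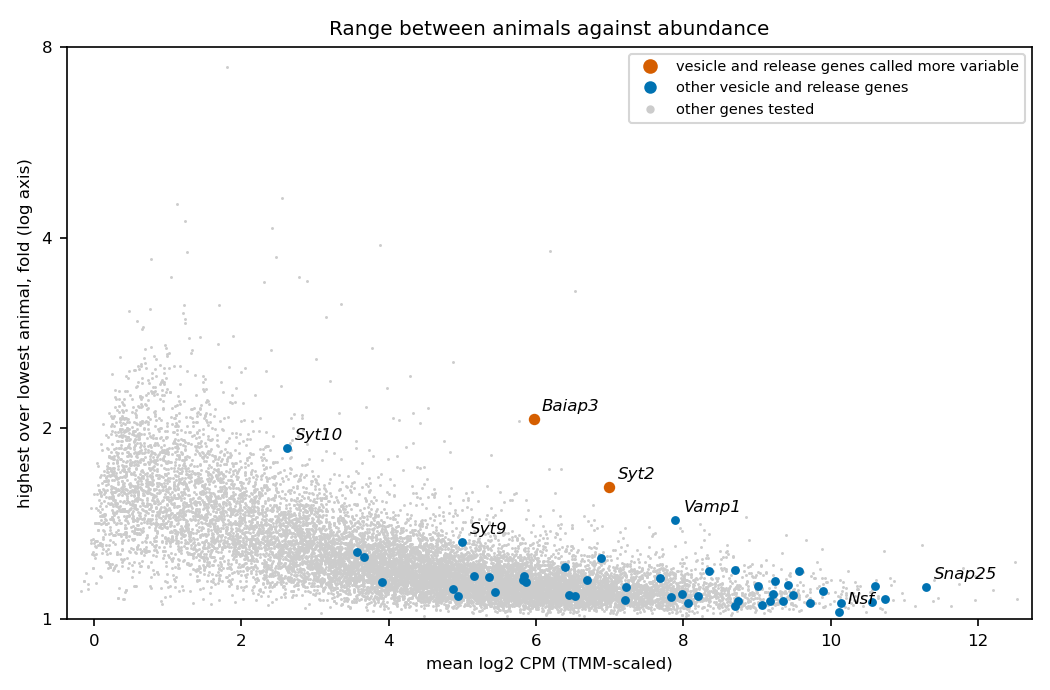
Highest over lowest animal, as a fold on a log axis, against mean log2 CPM for the 14770 genes tested (grey), the 49 vesicle and release genes (blue) and the 2 of them called more variable (orange). Baiap3 at 2.07-fold and Syt2 at 1.61-fold lie above most genes of like abundance, Syt10 at 1.86-fold lies among the less abundant genes and was not called, Vamp1 stands at 1.43-fold, and Nsf lies near the lower edge at 1.03-fold.

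Several genes that mark particular brain regions, cell types or blood also differed between the animals. All 5 blood markers were called, summing to 86.8, 112, 201, 132 and 53.1 CPM in animals 1 to 5. Their sum was highest in animal 3 and lowest in animal 5. The striatal marker Adora2a, highest in animal 1, was called too (edgeR adjusted p = 0.0444). So was the endothelial marker Slc2a1, highest in animal 5 (edgeR adjusted p = 0.0237). Syt2 and Vamp1 were both highest in animal 4, then animal 1, and lowest in animal 5. Pvalb, the calcium buffer of fast-spiking interneurons, stood at 56.99, 40.01, 47.6, 62.3 and 44.3 RPKM in animals 1 to 5. The same animals were highest but animal 2 was lowest (edgeR adjusted p = 0.0444). Of the 6 inhibitory neuron markers only Pvalb was called, and the 6 summed to 1021, 981, 1004, 1021 and 1020 CPM. Sst was also highest in animal 4 and lowest in animal 2, whereas Gad1 was lowest in animal 4. Gad2 was highest in animal 3, and Vip and Npy in animal 5. The 6 brainstem and spinal cord markers summed to 7.92, 11.8, 7.53, 35.4 and 3.56 CPM, the most in animal 4 and the least in animal 5, and animal 2 lay above animal 1. Of these, 2 were abundant enough to be tested and 1 was called, the glycine transporter gene Slc6a5, at 0.436, 0.737, 0.381, 3.58 and 0.158 RPKM (edgeR adjusted p = 3.64e-07), while Hoxb3 was at 0 in animals 1, 2, 3 and 5. The 6 cerebellar markers summed to 194, 214, 189.6, 234 and 199 CPM, the most in animal 4 and the least in animal 3. Calb1 (1710 to 2316 counts per library) and Zic1 (627 to 936) made up most of each sum. Of the 6 markers, 3 were tested and none was called. The granule cell gene Gabra6 was at 1.65 RPKM in animal 4 against at most 0.030 in the others, and at 0 in animals 3 and 5. Pcp2 and Cbln3 stood at 0.878 and 0.993 RPKM in animal 4, against at most 0.166 and 0.142 in the others. The oligodendrocyte markers summed to 5973 CPM in animal 4 and to 4766 to 5030 in the others, with 0 of 5 called. The marker lists were chosen with earlier results of these data known, and the part of these markers in the spread of Syt2 and Vamp1 was not tested.

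Baiap3 followed another order of animals. The 8 markers of hypothalamic peptide neurons summed to 62.5, 84.1, 58.2, 68.9 and 36.3 CPM in animals 1 to 5, highest in animal 2 and lowest in animal 5 as Baiap3 was, and none of the 8 was at 0. Of these, 4 were called, with 1.997, 3.08, 1.66, 2.38 and 0.95 RPKM for the GABA receptor subunit gene Gabrq (range 3.14-fold, edgeR adjusted p = 0.0109) and 0.926, 2.498, 1.76, 1.56 and 0.807 for the signalling adaptor gene Irs4 (3.003-fold, adjusted p = 0.00781). Oxt and Avp, which encode oxytocin and vasopressin, were the other called markers, with ranges of 4.63-fold and 2.32-fold. Gabrq, Irs4 and Oxt shared the highest animal (2) and the lowest (5) with Baiap3, whereas Avp was highest in animal 1 and lowest in animal 5. The 4 markers that were not called followed other orders, with Pmch and Hcrt highest in animal 4 and lowest in animal 5, Agrp highest in animal 4 and lowest in animal 3, and Pomc highest in animal 2 and lowest in animal 1. The marker lists were chosen with earlier results of these data known, so the 4 calls and the shared order are not independent of these data. The part of these markers in the spread of Baiap3 was not tested.

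**Figure D5:**
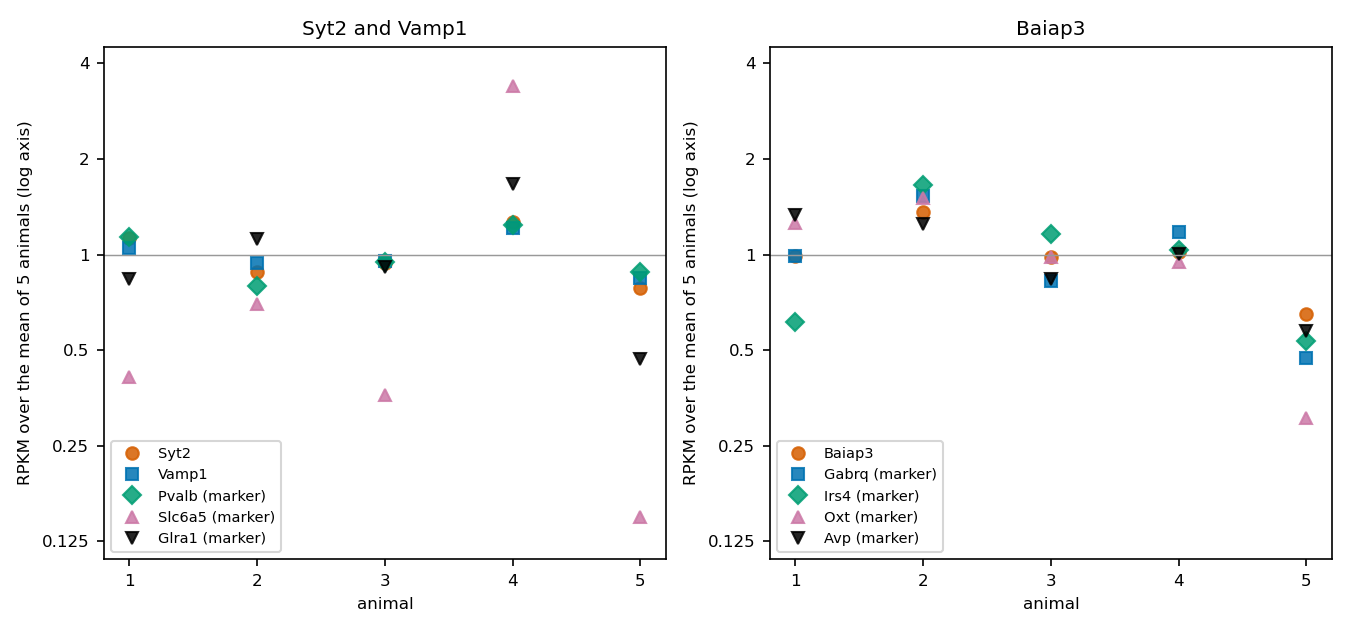
RPKM over the mean of the 5 animals on a log axis, by animal, for Syt2 and Vamp1 with 3 marker genes (left) and for Baiap3 with 4 markers of hypothalamic peptide neurons (right). Syt2, Vamp1 and Pvalb are highest in animal 4, where Slc6a5 stands at 3.58 RPKM, and Baiap3, Gabrq and Irs4 are highest in animal 2 and lowest in animal 5. Other markers of the same lists are not plotted.

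Promoter windows of the genes were examined for letters of known motifs, as a description of what the set shares beyond its levels. RefSeq windows (GRCm38.p6, 250 bases before to 50 bases after the start) were matched by symbol for 37 of the 49 genes and compared with those of 17492 protein-coding genes, on both strands. The GC box GGGCGG, the letters bound by Sp factors, was present for 28 of the 37 (75.7%) and for 49.2% of all genes. The TATA box TATAAA was present for 2 (5.41%) and for 14.8%, and the E box CAGCTG for 12 (32.4%) and for 17.5%. The cyclic AMP response element TGACGTCA was found for 1 gene, Syn1 (2.70%), and for 2.54% of all, and its shorter core TGACG, which lies within it, for 9 (24.3%) and for 26.2%. For RE1, the element of the repressor REST that silences neuronal genes outside neurons, the left part CAGCACC was found for 4 (10.8%) and for 8.30%, the right part GGACAG for 11 (29.7%) and for 25.01%, and both parts spaced by 2 bases for 0 of the 37 and for 0.0515% of all. The median GC content of the windows was 62.5% for the set and 56.3% for all genes, so the sets differ in base composition too and the part of that in the motif shares was not tested.

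The windows of the 2 called genes and of Vamp1 are printed because these genes spread most for their abundance, with GC boxes (GGGCGG or its reverse complement) in capitals, 5′ to 3′ along the gene. That of Baiap3 (chr17:25256315-25256614, minus strand) holds 2 overlapping boxes just behind the start, the upstream one of the 2 Syt2 windows (chr1:134646362-134646661, plus strand) holds 4 and that of Vamp1 (chr6:125215331-125215630, plus strand) holds 1.
Baiap3: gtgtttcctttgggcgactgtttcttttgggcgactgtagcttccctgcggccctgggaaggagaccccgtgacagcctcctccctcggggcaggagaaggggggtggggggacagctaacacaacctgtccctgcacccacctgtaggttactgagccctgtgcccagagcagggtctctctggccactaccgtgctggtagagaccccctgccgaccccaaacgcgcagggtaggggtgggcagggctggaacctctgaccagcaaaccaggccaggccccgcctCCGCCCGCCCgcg
Syt2: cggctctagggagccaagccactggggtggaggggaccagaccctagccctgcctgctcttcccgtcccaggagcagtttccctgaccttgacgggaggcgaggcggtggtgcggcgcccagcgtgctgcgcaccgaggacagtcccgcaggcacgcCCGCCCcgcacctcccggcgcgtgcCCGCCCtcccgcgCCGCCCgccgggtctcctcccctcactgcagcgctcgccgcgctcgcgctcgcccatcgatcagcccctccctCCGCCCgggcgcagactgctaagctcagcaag
Vamp1: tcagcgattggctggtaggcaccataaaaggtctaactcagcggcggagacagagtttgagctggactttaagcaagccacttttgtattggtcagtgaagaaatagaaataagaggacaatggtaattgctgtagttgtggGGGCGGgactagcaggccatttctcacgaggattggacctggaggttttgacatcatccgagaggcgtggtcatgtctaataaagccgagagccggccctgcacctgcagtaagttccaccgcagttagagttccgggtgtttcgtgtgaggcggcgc
GC content was 66.3% for the Baiap3 window, 74.3% for the Syt2 window and 51.7% for the Vamp1 window. None of the 3 holds the TATA box, the E box or the full cyclic AMP response element.

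Other genes of the pathway were listed for comparison, 73 in all, of which 72 were matched and 69 passed the filter on low counts. None of the 69 was called more variable by edgeR (6 at an unadjusted p under 0.05), with a median range of 1.11-fold and a median level of 21.9 RPKM. In SNARE assembly, Snap47, a relative of Snap25, averaged 146 ± 2.38 RPKM. Among further calcium sensors, Rph3a, a Rab3 effector, averaged 113 ± 2.72 RPKM, Syt16 24.8 ± 1.19 and Doc2b 16.4 ± 0.862. At the active zone, Cadps, which primes dense-core vesicles, averaged 61.2 ± 2.73 RPKM, the adaptor gene Apba2 61.2 ± 1.96 and Lin7b 47.3 ± 2.01. On the vesicle membrane the glutamate transporter Slc17a7 averaged 382 ± 21.99 RPKM, the synuclein gene Sncb 160.3 ± 5.37 and Scamp5 142 ± 4.19. In endocytosis, the clathrin heavy chain Cltc averaged 104 ± 5.99 RPKM, Bin1 102 ± 3.73 and Pacsin1 95.2 ± 1.82.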

How the data were processed

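Counts per Ensembl gene were deposited by the authors for 5 libraries, as raw whole numbers. CASAVA 1.7, STAR 2.4.1d and featureCounts 1.4.6-p4 on the build GRCm38 are named there (per the submitters' processing notes), without settings. The authors also deposited RPKM. Its values fit library totals used in turn down the table, so 80% of entries carry a foreign total. Implied gene lengths had a coefficient of variation of 0.00178% that way and of 10.7% with own totals (7363 genes). RPKM was therefore recomputed with own totals and the recovered lengths. Symbols, positions and coding sequences came from GENCODE M21, promoters from RefSeq (GRCm38.p6).

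Variability was fitted with edgeR 4.0.16 in R 4.3.3 on all 14770 genes left by filterByExpr (TMM scaling, estimateDisp, then glmQLFit, robust and legacy, with only an intercept). The quasi-dispersion over its trend was referred to the F distribution, one-sided (residual df 4, prior df 15.3), adjusted by Benjamini-Hochberg (threshold 0.05). The fit was also run on counts simulated with a common dispersion for all genes. Its result is not given here and does not weigh the calls above. Ranges were taken on log2 CPM after TMM (prior count 2). Alternatives were DESeq2 1.42.0 size factors and dispersion outliers, limma 3.58.1 on log2(RPKM + 0.1), no filter, a prior that is not robust, other lengths and pseudocounts, and each animal left out. The longest coding transcript and limma on deposited RPKM were added after seeing the data.

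The text names all 49 genes, with values in every library for the first gene of each family, the called genes, the 5 genes with the largest range and genes whose order is discussed. Of the pathway lists it names the 3 most abundant genes (some of the SNARE list are not reported here), and of the marker lists sums and defining or called genes. The members and lists were chosen with earlier results of these data known. The listed gene Vamp7 is not analysed here. Intervals are not given, since reads are not independent molecules and depth covers counting error only.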

Additional observations from a re-analysis of the deposited data

Results flagged for a closer look

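Of 83 levels and pair ratios tested for a single animal far from the other 4, 6 passed Dixon's 95% critical value of 0.71 for the gap over the range, and chance passes about 1 in 20. Syt7, the slow calcium sensor, was low in animal 4, at 58.7 RPKM against 61.8 to 62.4 in the others (gap over range 0.831). Synpr was low in animal 1, at 10.3 RPKM against 11.1 to 11.3 (0.827). Sv2a was low in animal 5, at 146 RPKM against 156 to 158 (0.767). Bsn was high in animal 1, at 41.8 RPKM against 36.6 to 37.9 (0.748). Syp was high in animal 5, at 167 RPKM against 158 to 161 (0.744). The log2 ratio of Sv2a over Sv2c was low in animal 4, at 3.45 against 3.62 to 3.68 (0.729).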

How the results depend on the processing

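The number of genes of the set called more variable was 0 with limma on recomputed RPKM and 0 with limma on deposited RPKM. Leaving out each animal in turn gave 1 to 3 calls, with 1 without animal 4 (Syt2 lost) and 1 without animal 5 (Baiap3 lost), and 3 without animal 1 (Vamp1 gained). The median range was 1.254-fold on deposited RPKM, whose entries mostly carry another library's total, and 1.09-fold to 1.12-fold when 1 animal was left out, where fewer samples were compared. On counts without a length the log2 ratio turned to 0.59 for Syt1 over Syt11, -1.03 for Cplx1 over Cplx2 and -0.20 for Rab3a over Rab3c, and with the longest coding transcript to 0.65 for Syt1 over Syt11, by the length used. No other pair of the 34 turned under any alternative run. With that length 34 of the 49 levels moved beyond 1 SD, with TMM library sizes none did and with deposited RPKM 1 did (Nsf, 134 RPKM). Depth limits Syt10, Cplx3 and Syn3 most, at 57 to 115, 159 to 178 and 148 to 205 counts. No paired analysis was possible because all samples are in 1 group.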

Other observations

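Several close relatives of the genes described were at or near the limit of detection, as read from the pathway lists. Syt8 stood at 0.0159 RPKM on average, Cplx4 at 0.0322 and Syngr4 at 0.0304, each with 0 counts in at least 1 library. Syt15 averaged 0.209 ± 0.0519 RPKM and Unc13d, the Munc13 of blood cell granules, 0.329 ± 0.112. Rab3d, the form of exocrine glands, stood at 2.19 ± 0.128 RPKM, Syt14 at 2.92 ± 0.132 and Syngr2 at 4.38 ± 0.288. Rims4, another short RIM, reached 22.97 ± 1.38 RPKM, and Dnm2, the dynamin of all tissues, 13.1 ± 0.189.

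Some transmitter transporters of less common neurons had wide ranges among the vesicle membrane genes. Slc18a3, which loads acetylcholine, stood at 1.703, 1.504, 1.58, 1.89 and 0.723 RPKM in animals 1 to 5 (range 2.496-fold, edgeR adjusted p = 0.679). Slc18a2, which loads monoamines, stood at 3.301, 5.55, 4.296, 5.12 and 3.05 (1.79-fold, adjusted p = 0.102) and the subcortical glutamate transporter Slc17a6 at 19.4, 23.2, 20.96, 24.6 and 17.7 (1.39-fold, adjusted p = 0.171). The synuclein gene Sncg stood at 7.98, 10.3, 8.100, 11.2 and 5.88 (1.89-fold, adjusted p = 0.621), the second widest range among the tested genes of that list. Slc17a7 ranged 1.15-fold and Slc32a1, which loads GABA, 1.097-fold. None passed the threshold, and these genes were singled out after their values were seen.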
